A study of Mus musculus with 12 samples.

Results

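The Sp100/Sp110/Sp140 cluster is a group of 9 annotated genes spread over 682 kb of mouse chromosome 1. They are Sp100, Sp110, Sp140, A530032D15Rik, A530040E14Rik, Gm7609, Gm7592, Gm7582 and Gm2619. They are 9 of 55401 genes in the count table and 9 of 14079 genes that were tested, so every member passed the filter on low counts. The members were listed because the segment had the largest shared difference between EKO-labelled and control cells in these same libraries. All values that compare the 2 lines for these genes are therefore given as a description, without a test. The cells were Sp37A3, a dendritic cell (DC) line grown from mouse spleen. The control line (CtrV) had been transduced with an empty vector and is labelled SiglecE-expressing. The other line (EKO) pools clones that had undergone CRISPR/Cas9 editing of Siglece and is labelled SiglecE-knockout. All 12 cultures were stimulated with lipopolysaccharide (LPS), for 24 h by the labels, and 3 cultures of each line were pulsed with ovalbumin (OVA) while 3 were not. Each line was made once, so an effect of editing Siglece and any other difference between the 2 lines cannot be told apart.

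Sp100, Sp110 and Sp140 encode speckled proteins of the cell nucleus. Sp100 is a main component of PML nuclear bodies, which are spheres of PML, its partner proteins and chromatin factors. Proteins of the family share an N-terminal domain for self-association, many carry a SAND domain, which binds DNA, and some add a PHD finger and a bromodomain, which read histone marks. Transcription of the family is induced by interferon: type I interferon activates transcription factors that bind short repeats of GAAA in the promoters of their targets. In the mouse, Sp110 and Sp140 lie in a locus of chromosome 1 that affects resistance to intracellular bacteria, and Sp140 is known to restrain the output of type I interferon in macrophages. The same chromosome region has expanded by duplication, which left copies and fragments of these genes beside the originals.

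Start regions are shown for 5 members because they make the duplications visible. RefSeq start windows on GRCm38.p6 were found for 6 of the 9 members, 8 windows in all. Each line below gives a stretch at or just upstream of the annotated start, 5′ to 3′. In the first group, capitals mark a match to AAANNGAAA on either strand, a form of the repeat recognised by interferon regulatory factors. Sp100 is taken from chr1:85649888-85650007, plus strand, Gm7609 from chr1:85199483-85199602, plus strand and Sp110 from chr1:85598791-85598910, minus strand.
Sp100: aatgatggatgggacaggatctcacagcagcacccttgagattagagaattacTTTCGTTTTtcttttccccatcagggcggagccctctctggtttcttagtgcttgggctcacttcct
Gm7609: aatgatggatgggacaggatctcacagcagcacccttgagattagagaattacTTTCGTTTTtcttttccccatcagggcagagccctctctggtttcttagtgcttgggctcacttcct
Sp110: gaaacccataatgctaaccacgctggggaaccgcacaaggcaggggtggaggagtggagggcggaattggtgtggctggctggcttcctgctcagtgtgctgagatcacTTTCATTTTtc
Over these 120 bases Sp100 and Gm7609 differed at 1 position, and both held the match in the same place. In Sp110 the match began at base 10 after the start of its second RefSeq window, and its first window held none. AAANNGAAA was present in 4 of the 8 windows, of which 2 are overlapping windows of Sp100, and in 10.6% of all 32841 start windows of the same length. The stricter form with a further G in front was found in none of the 8 windows and in 3.44% of all windows. TTCNNNGAA, a palindrome of many interferon-responsive promoters, was found in none of the 8 and in 8.3% of all windows. The motif forms were chosen after the windows had been read. In the second group, capitals mark the base that differs. Sp140 is taken from chr1:85600554-85600693, plus strand and A530032D15Rik from chr1:85109834-85109973, minus strand.
Sp140: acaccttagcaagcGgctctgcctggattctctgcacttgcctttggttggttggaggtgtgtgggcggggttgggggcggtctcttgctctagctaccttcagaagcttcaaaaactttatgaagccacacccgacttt
A530032D15Rik: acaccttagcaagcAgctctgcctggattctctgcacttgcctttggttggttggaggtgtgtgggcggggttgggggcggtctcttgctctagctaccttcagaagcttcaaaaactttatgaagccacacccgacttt
The 2 stretches differed at 1 of 140 bases, and neither held any of the 3 motifs. Over the whole windows the identity was 99.6% in 271 aligned bases for A530032D15Rik and Sp140, and 98.5% in 272 aligned bases for Gm7609 and the first window of Sp100.

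The transcripts were compared because near-identical copies can exchange reads. In the authors' alignment, reads with up to 10 equally good places were assigned to 1 of them, and 5′ read ends were counted on exon unions. Each member's annotated transcripts (GENCODE M21) were cut into all stretches of 50 bases. Sp100 (ENSMUSG00000026222, protein coding, chromosome 1 from 85649988 to 85709998, plus strand) had 94.1% of its stretches in no other annotated gene. Counts of Sp100 are therefore largely its own. Gm7592 (ENSMUSG00000090186, a transcribed pseudogene from 85526690 to 85550577, plus strand) and Gm7582 (ENSMUSG00000061852, an unprocessed pseudogene from 85027954 to 85041958, minus strand) were unique in only 24.2% and 23.5% of theirs. Gm7592 shared 59.2% of its stretches with Gm7609 and 58.1% with Gm7582. Gm2619 (ENSMUSG00000091199, a transcribed pseudogene from 85156809 to 85327306, minus strand) was unique in 63.9% and shared 29% with Sp100. Gm7609 (ENSMUSG00000079457, annotated as a transcribed pseudogene here and as protein coding by RefSeq, from 85199613 to 85213786, plus strand) was unique in 61.7%.
The 4 Gm genes are thus partial copies of Sp100 by sequence. Their longest alignments to Sp100 transcripts had 99.4% identity for Gm7609, 98.3% for Gm7592, 99.1% for Gm7582 and 98.7% for Gm2619. These alignments covered 11% of the longest Gm7609 transcript and between 55.1% and 58.4% of the other 3. A530032D15Rik (ENSMUSG00000089844, protein coding, from 85083069 to 85109853, minus strand) is the copy of Sp140, with 97.2% identity over 59.4% of its longest transcript. Sp140 (ENSMUSG00000070031, protein coding, from 85600378 to 85645037, plus strand) was unique in 42.7% and A530032D15Rik in 59.9% of stretches. Sp110 (ENSMUSG00000070034, protein coding, from 85576899 to 85598817, minus strand) was unique in 57.7%, and 26.7% of its stretches lay in Gm16026, a pseudogene of the same segment. A530040E14Rik (ENSMUSG00000072109, annotated as antisense, from 85105946 to 85114035, plus strand) was unique in 61.9%. Exons of Sp140 overlap genes on the opposite strand over 26.5% of their bases, those of A530040E14Rik over 14.8% and those of Sp110 over 5.78%. Use of strand by the counter is not given in the sources used here, and reads of such partners cannot be told apart. Counts of every member but Sp100 are uncertain to this extent.

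Total counts lay between 27116201 and 39698572 per library, at which 3 counts equal 0.0784 to 0.110 CPM, the counts scaled to library size by TMM. Replicates of 1 group differed by more than sampling noise, so all 12 were kept as separate samples. Siglece, the targeted gene, had 150 to 163 CPM in the 6 CtrV libraries and 166 to 235 CPM in the 6 libraries labelled EKO. Its mRNA was thus not lower under the EKO label but higher. The log2 fold change was 0.31 with OVA (adjusted p = 0.011 from edgeR) and 0.41 without (adjusted p = 0.0026 from edgeR). By the study's methods the clones had been picked for little or no Siglec-E protein, which mRNA counts do not measure, and directions below are those of the labels. Of 10 markers of dendritic cells all were tested, and their summed level was 24437 to 27022 CPM over all libraries, most of it Cd74. With OVA edgeR called 5 of them higher and 2 lower under the EKO label, beside 25.1% and 21.9% of all tested genes. Without OVA it called 4 and 2, beside 24.5% and 21.9%. The lower ones were Itgax and Ciita, and H2-Ab1, H2-Aa, Irf8 and Ptprc were higher in both settings. Summed markers of T cells and neutrophils stayed at or under 0.185 CPM. Summed NK cell markers were 1.22 to 2.30 CPM in CtrV and 0.854 to 1.48 CPM in EKO-labelled cells, with Ncr1 and Eomes at 0 in every library and Klre1 called lower under the EKO label without OVA (edgeR). Summed stromal, endothelial and epithelial markers were 22.1 to 28.4 and 28.1 to 34.6 CPM, mostly Epcam, with 4 of 6 under the level of 3 counts in every library and Cdh5 called higher under the EKO label (edgeR). Summed macrophage markers were 1253 to 1441 CPM in CtrV and 1576 to 1710 CPM in EKO-labelled cells, with Mrc1 at 0 in every library, and summed B cell markers were 0.0357 to 0.282 and 0.546 to 1.06 CPM. The part of these in the results was not tested, and in bulk samples fewer cells of a type and less RNA per cell cannot be told apart.

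Sp100, the nuclear body protein, had the highest CPM of the cluster. Unpulsed CtrV cultures 1, 2 and 3 had 123, 130 and 142 CPM, and the OVA-pulsed ones 180, 119 and 114 CPM. Unpulsed EKO-labelled cultures had 221, 321 and 323 CPM, and the OVA-pulsed ones 264, 275 and 295 CPM. Every EKO-labelled library was above every CtrV library, and the lowest of them was 1.23 times the highest CtrV library, which was culture 1 with OVA. The log2 fold change between the lines was 1.01 (standard error 0.18, n = 3 cultures per group) in OVA-pulsed cells and 1.13 (standard error 0.18) in unpulsed cells.

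Sp110, which lies with Sp140 in the resistance locus, was lower in level than Sp100, with the means of the groups in the same order. CtrV cultures had 41.2, 42.2 and 46.6 CPM unpulsed, against 51.1, 40.7 and 41.9 CPM after OVA. EKO-labelled cultures had 70.9, 94.8 and 94.2 CPM unpulsed, against 81.8, 83.9 and 88.6 CPM after OVA. The lines did not overlap, and the log2 fold change was 0.92 (standard error 0.12) with OVA and 1.00 (standard error 0.12) without. Sp140, the bromodomain and PHD protein of leukocytes, had 94.5, 94.1 and 100 CPM in unpulsed CtrV cultures, against 115, 92.7 and 85.7 CPM after OVA. Its EKO-labelled libraries had 153, 192 and 176 CPM unpulsed, against 180, 168 and 185 CPM after OVA. The difference was the smallest of the cluster, namely 0.86 on the log2 scale with OVA and 0.85 without (standard error 0.11 each).

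**Figure D1:**
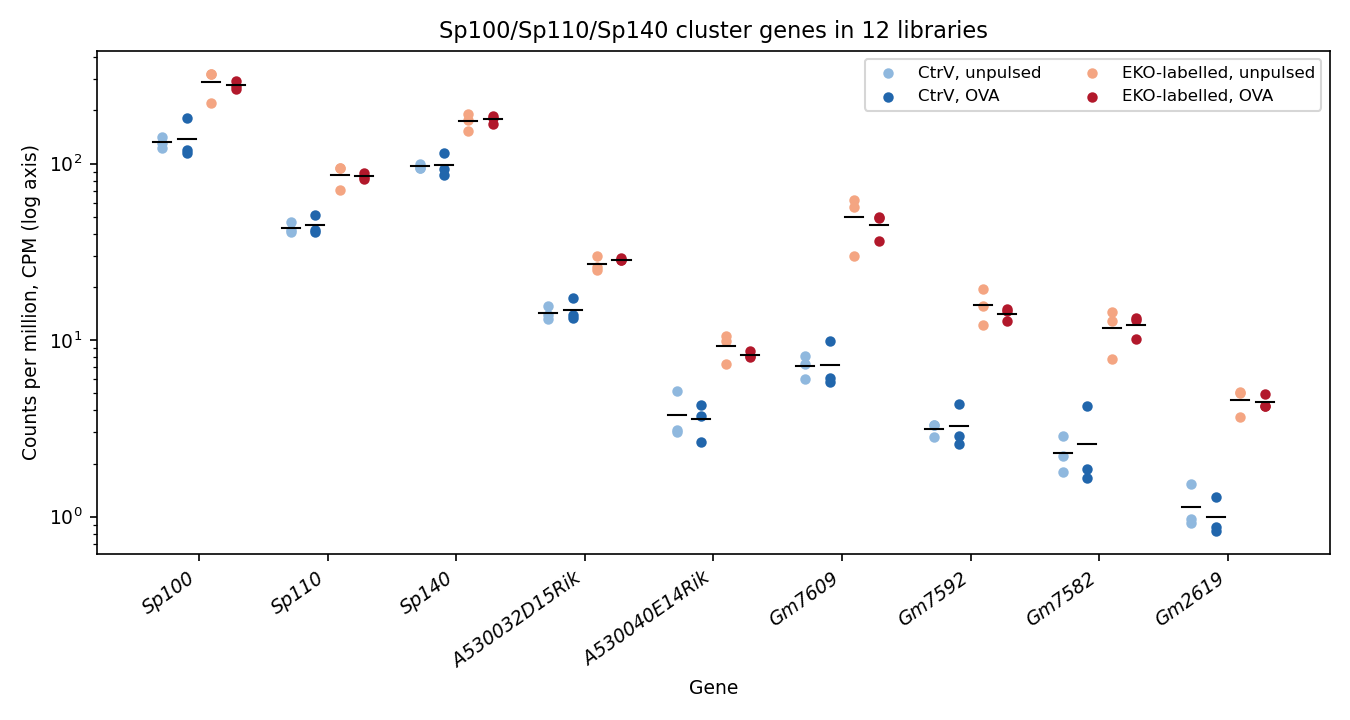
CPM on a log axis for each of the 9 genes, with 1 point per library (3 per group) and a black bar at the mean of the group. For each gene the 6 EKO-labelled libraries lie above the 6 CtrV libraries, and the gap is widest for Gm7609, whose lowest EKO-labelled library is 3.02 times its highest CtrV library.

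A530032D15Rik, the copy of Sp140, had 13.9, 13.2 and 15.6 CPM in unpulsed CtrV cultures, against 17.4, 13.3 and 13.9 CPM after OVA. In EKO-labelled cultures it had 25.1, 30.1 and 25.8 CPM unpulsed, against 28.3, 28.3 and 29.0 CPM after OVA. Its log2 fold change between the lines, 0.94 with OVA and 0.92 without (standard error 0.11 each), was near that of Sp140. A530040E14Rik, the antisense-annotated gene, had 2.66 to 5.15 CPM in CtrV and 7.29 to 10.6 CPM in EKO-labelled libraries. Its log2 fold changes were 1.21 and 1.31 (standard error 0.20 each).

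The 4 Sp100 copies were low in CtrV cells and differed more between the lines than Sp100 itself. Gm7609 had 6.06, 7.33 and 8.13 CPM in unpulsed CtrV cultures, against 9.90, 5.82 and 6.09 CPM after OVA. In EKO-labelled cultures it had 29.9, 61.9 and 56.7 CPM unpulsed, against 36.5, 49.0 and 49.7 CPM after OVA. The lowest EKO-labelled library was 3.02 times the highest CtrV library, and the log2 fold change was 2.58 (standard error 0.26) with OVA and 2.76 (standard error 0.27) without. Gm7592 had 2.58 to 4.37 CPM in CtrV and 12.2 to 19.4 CPM in EKO-labelled libraries. Gm7582 had 1.66 to 4.21 and 7.80 to 14.5 CPM, and Gm2619 had 0.828 to 1.54 and 3.66 to 5.10 CPM. None of the 3 overlapped between the lines. Their log2 fold changes with OVA were 2.09, 2.18 and 2.12, and without OVA 2.32, 2.34 and 2.01. All 4 copies were thus above 2 in both settings, as were 1.62% of all tested genes. The members were chosen on this contrast, so this is a description. With 1 library left out, the lowest values with OVA were 2.32 for Gm7609, 1.91 for Gm7592, 1.86 for Gm7582 and 1.91 for Gm2619. Without OVA they were 2.56, 2.13, 2.14 and 1.87, in the same order.

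Read as a group, the 9 members had a median log2 fold change of 1.21 with OVA and 1.31 without, beside 0.00 for all tested genes in each. All 6 EKO-labelled libraries lay above all 6 CtrV libraries for 9 of 9 members and for 18.9% of tested genes. The lines differed widely: edgeR (quasi-likelihood test, adjusted p below 0.05) called 47.0% of tested genes with OVA and 46.4% without, of which 25.1% and 24.5% of tested genes were higher and 21.9% each lower in EKO-labelled cells. The members were chosen on this contrast, and nothing is read from their count.

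**Figure D2:**
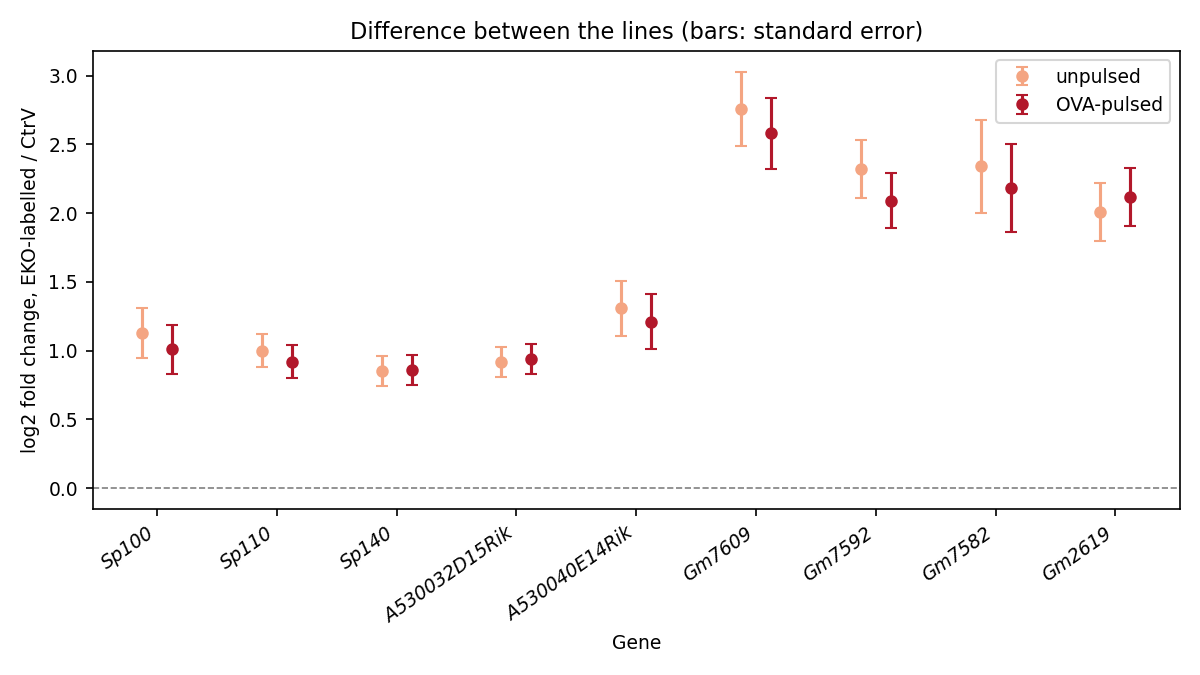
log2 fold change of EKO-labelled over CtrV cells for each gene, unpulsed and OVA-pulsed, with bars of 1 standard error (3 cultures per group). Sp100, Sp110, Sp140 and A530032D15Rik lie near 1 and the 4 Gm copies above 2, with and without OVA.

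The make-up of the cluster's counts differed between the lines. Summed over the 9 genes there were 303 ± 20.1 CPM in unpulsed and 313 ± 64.8 CPM in OVA-pulsed CtrV cells, while the EKO-labelled groups reached 666 ± 118 and 653 ± 31.9 CPM (SD, n = 3 for each group). The 4 Gm copies held 4.52% ± 0.333 and 4.44% ± 0.580 of that sum in CtrV cells and 12.0% ± 1.75 and 11.6% ± 1.27 in EKO-labelled cells (SD, n = 3 each). The share of Sp100 lay between 42.6% and 43.8% in the 4 groups, and that of Sp140 was 31.8% and 31.5% in CtrV and 26.3% and 27.2% in EKO-labelled cells. With the counts of Sp100 and Gm7609 added into 1 gene, which removes any exchange of reads between them, the log2 fold change was 1.15 with OVA and 1.28 without. With the 6 members other than Sp100, Sp110 and Sp140 added together it was 1.77 and 1.89.

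Per kilobase of exon, which adjusts levels for the length of the gene, Sp140 and Sp100 had the highest means in every group. In OVA-pulsed CtrV cells Sp140 had 25.8 to 34.6 CPM per kb and Sp100 15.1 to 23.8, and A530032D15Rik (8.30 to 10.9) came next. Gm7592 (4.11 to 6.97), Gm7582 and Gm7609 (2.33 to 3.97) came after Sp110 (6.00 to 7.54), and A530040E14Rik and Gm2619 were last. Sp110 and Gm7592, Gm7592 and Gm7582, Gm7582 and Gm7609, and the last 2 overlapped in their libraries. In OVA-pulsed EKO-labelled cells Sp140 had 50.5 to 55.6 CPM per kb and Sp100 34.9 to 39.0. There Gm7592 (20.4 to 23.9), Gm7582 (16.9 to 22.1) and Gm7609 (14.6 to 19.9) stood above Sp110 (12.1 to 13.1), with no overlap between Sp110 and any of them. Gm7609 overlapped A530032D15Rik (17.7 to 18.1). In unpulsed EKO-labelled cells Sp110 (10.5 to 14.0) overlapped Gm7609 (12.0 to 24.8) and Gm7582 (12.9 to 24.0), and Sp100 (29.2 to 42.7) overlapped Gm7592 (19.5 to 30.9). The exon lengths are those of GENCODE M21 and may differ from the gene models the authors counted with. They are unions over all annotated transcripts, of 7556 bases for Sp100 and 6781 for Sp110. The longest single transcripts of these have 3807 and 2583 bases. For Gm7592 and Gm7582 union and longest transcript are alike, at 627 and 603 bases. The place of Sp110 below these copies is thus that of exon unions, and an order by longest transcript was not computed. Gm7592 and Gm7582 were unique in only 24.2% and 23.5% of their stretches of 50 bases. Their place in this order therefore also depends on how shared reads were assigned.

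Pulsing with OVA is a contrast that did not choose the members, so it was tested. No member was called in either line by edgeR, and each adjusted p was 1.0 (Benjamini-Hochberg over all tested genes). Sp100 had a log2 fold change of OVA-pulsed over unpulsed cells of 0.07 in CtrV cells (95% interval -0.34 to 0.48) and -0.05 in EKO-labelled cells (-0.45 to 0.35). Sp140 had intervals of -0.22 to 0.26 and -0.21 to 0.27, among the narrowest, and Gm7582 had the widest, -0.67 to 1.10 and -0.56 to 0.66. Over the 9 members the values ran from -0.16 to 0.22 in CtrV and from -0.16 to 0.08 in EKO-labelled cells, the smallest unadjusted p of edgeR's test was 0.55 and 0.39, and the libraries of pulsed and unpulsed cells overlapped for each member. Over all tested genes they did not overlap for 4.37% in CtrV and 4.90% in EKO-labelled cells. Of all tested genes 0 passed in either line by edgeR and 0 by DESeq2. At an unadjusted p under 0.05, 1.64% passed by edgeR in CtrV and 2.80% in EKO-labelled cells. DESeq2 gave 44 and 156 genes at that level. Whether the difference between the lines depended on pulsing was tested as an interaction, for which 0 genes passed by edgeR and 0 by DESeq2. At an unadjusted p under 0.05, 1.91% of tested genes passed by edgeR and 103 genes by DESeq2. Over the members the interaction ran from -0.23 for Gm7592 to 0.12 for Gm2619, with a smallest unadjusted p of 0.45 from edgeR's test, and 95% intervals that reached from -1.24 to 0.90 in Gm7582. Changes smaller than these intervals could not be detected with 3 cultures per group. The shares of 1.64%, 2.80% and 1.91% are below 0.05, the share that would pass if no gene changed. These tests were thus conservative. The replicate block was shared by both lines, so pairing of cultures within 1 line alone was not fitted. Whether a block within each line would narrow the intervals was not tested.

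**Figure D3:**
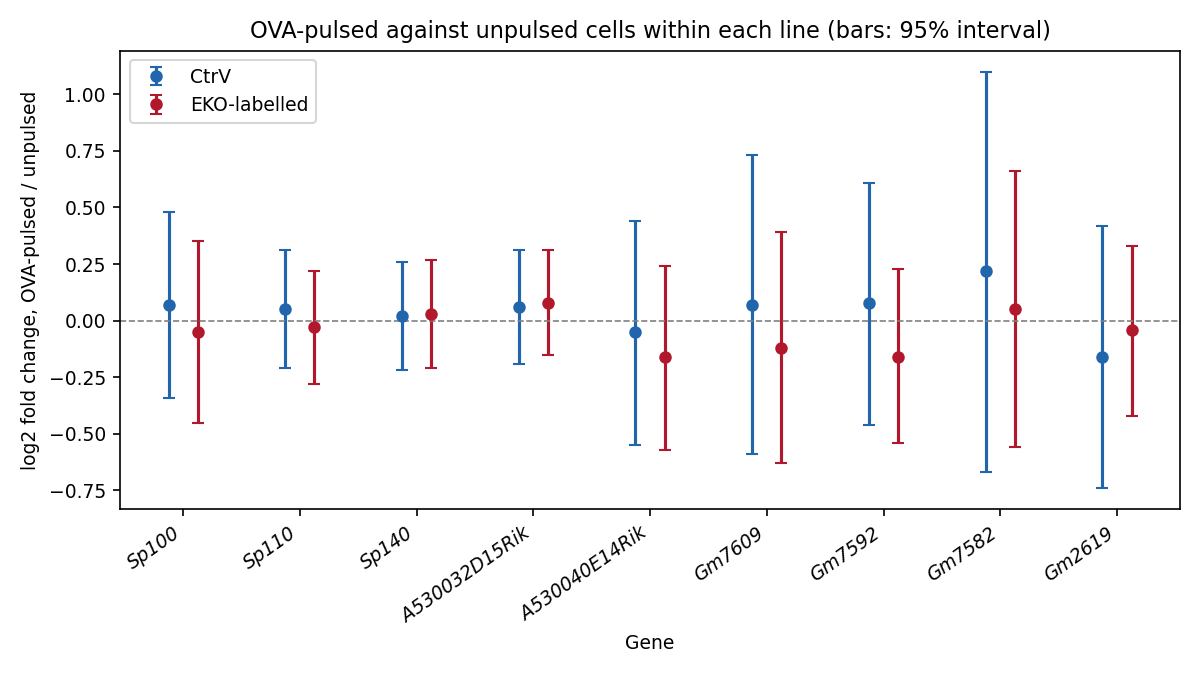
log2 fold change of OVA-pulsed over unpulsed cells in each line for each gene, with 95% intervals from edgeR (3 cultures per group). Every interval includes 0, and those of Gm7582 and Gm7609 are wider than those of Sp110, Sp140 and A530032D15Rik.

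The members varied together between cultures of 1 group. In unpulsed EKO-labelled cells culture 1 was the lowest for 9 of 9 members, as it was for 38.9% of all tested genes. Its level was 0.504 of the mean of cultures 2 and 3 for Gm7609, 0.569 for Gm7582, 0.686 for Sp100 and 0.898 for A530032D15Rik, which was the nearest to 1. With OVA the EKO-labelled culture 1 was lowest for 7 of 9 members, beside 37.9% of tested genes, and the exceptions were Sp140 and A530032D15Rik. It was lowest in both settings for 7 members and 25.6% of tested genes. In OVA-pulsed CtrV cells culture 1 was instead the highest for 9 of 9 members, beside 36.9% of tested genes. There it was 1.24 times the mean of the other 2 cultures for Sp110, 1.54 times for Sp100 and 2.39 times for Gm7582. In unpulsed CtrV cells culture 3 was the highest for 8 of 9 members, all but Gm7592, beside 45.1% of tested genes. The culture number alone thus did not set the order. Deviations from the 4 group means had a median correlation of 0.86 over the 36 pairs of members (0.59 to 0.96, 12 libraries), and the libraries share depth and, for the copies, reads. Without the OVA-pulsed CtrV culture 1 the log2 fold change between the lines with OVA was 1.34 for Sp100, 1.10 for Sp110, 3.11 for Gm7609, 2.96 for Gm7582 and 2.48 for Gm2619. The direction of each member was the same in all fits that left out 1 library. Because the libraries of the lines did not overlap for any member, these fits could not have reversed it.

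**Figure D4:**
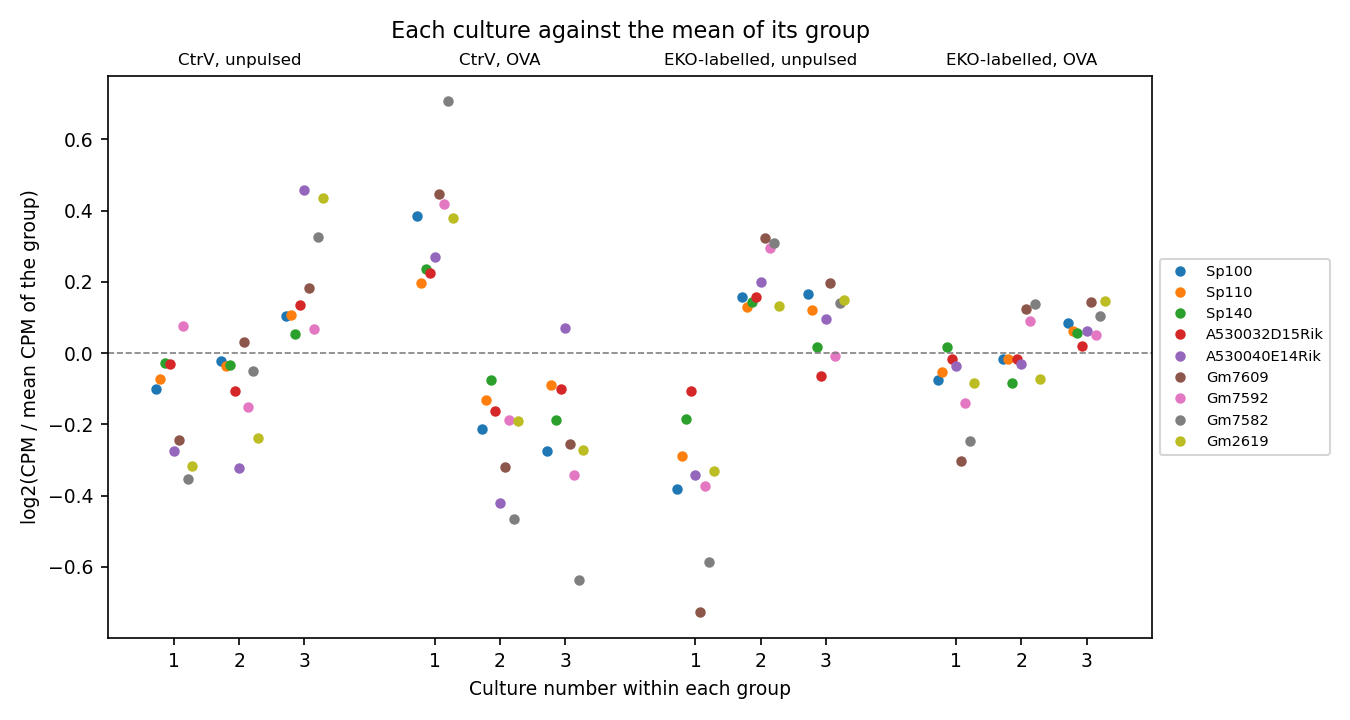
log2 of each library's CPM over the mean of its group, by culture number (1 to 3) within the 4 groups, 1 point per gene. The 9 genes lie on the same side of 0 in culture 1 of OVA-pulsed CtrV cells (all above) and in culture 1 of unpulsed EKO-labelled cells (all below).

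Genes between the members belong to the segment that was chosen, and their values are a description. Of 18 other annotated genes between them 7 were tested, and their log2 fold changes with OVA ran from 0.64 for Gm10552 to 1.27 for Gm18342, with a median of 0.88. Without OVA the log2 fold changes of these 7 genes ran from 0.58 for Gm10552 to 1.44 for Gm18342, with a median of 0.96. C130026I21Rik, a protein coding gene of the segment, had 126 CPM in OVA-pulsed CtrV and 249 CPM in EKO-labelled cells (means of 3 libraries), and its log2 fold change was 0.98. All 7 of these genes share stretches of 50 bases with a member, from 22.7% of their own stretches in C130026I21Rik to 62.4% in Gm2427, so they are not separate measurements of the segment. Within 1 Mb on either side, 22 of 60 annotated genes were tested, with a median log2 fold change of 0.06 with OVA and 0.07 without. With OVA edgeR called 8 of the 22 higher and 3 lower under the EKO label, beside 25.1% and 21.9% of all tested genes. Of these flanking genes 21 share no stretch of 50 bases with any member. The exception is Gm29284, a pseudogene with 39.8% of its stretches in Sp110, which had a log2 fold change of 0.91. Beyond the end of Sp100, A630001G21Rik had 0.89 and Cab39 0.46 with OVA, while Itm2c had 0.07. Past Itm2c, edgeR called Gpr55 (0.39) and Dis3l2 (0.23) higher and Armc9 (-0.32) and Ptma (-0.52) lower with OVA. The other tested genes there, apart from Nppc, were not called with OVA. On the other side of the segment, where Gm29284 also lies, Rpl19-ps1 had -0.02 and Gm27907 0.02. Farther out on that side Slc16a14 had 0.42, Trip12 0.37 and Pid1 -1.08. The value farthest from 0 among the flanking genes was that of Nppc, which encodes a natriuretic peptide, at 1020.6 kb from the start of Sp100. It had 0.749 and 5.24 CPM, and its log2 fold change was 2.81.

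**Figure D5:**
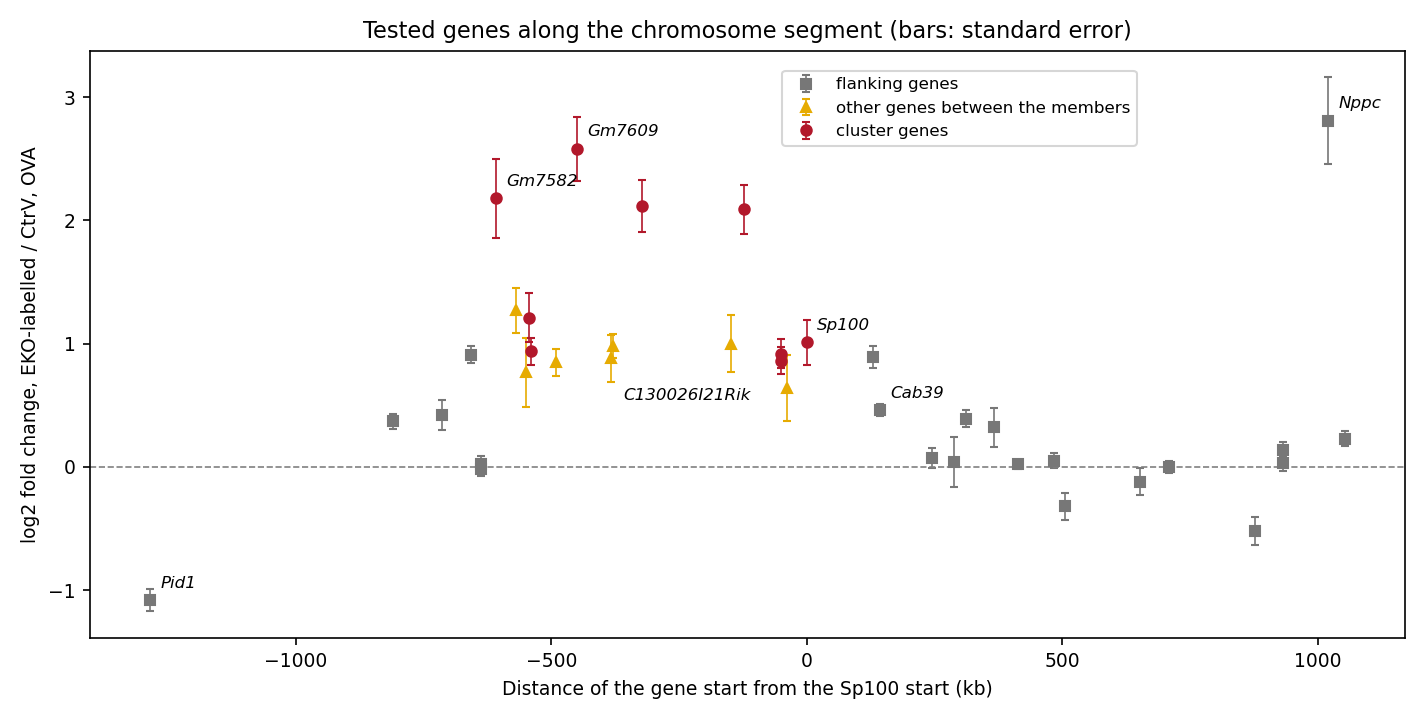
log2 fold change of EKO-labelled over CtrV cells with OVA for each tested gene, by the distance of its start from the start of Sp100 in kb, with bars of 1 standard error. Cluster genes lie at 0.86 to 2.58 and the genes between them at 0.64 to 1.27, while flanking genes have a median of 0.06.

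The genes whose pattern over the 12 libraries was most like the mean of the members were AC151275.1 (r = 0.998), Isg15 (0.997), Herc6 (0.997) and C130026I21Rik (0.997), besides 1 gene without a symbol. This measure includes the difference between the lines on which the members were chosen, so its values are a description. Isg15, a ubiquitin-like protein, and Herc6, its ligase in the mouse, are standard interferon-induced genes. By deviations from the group means alone, which leave out the difference between the lines, they were Gm5831 (r = 0.989), Isg15 (0.988), Oas1a (0.984), AC151275.1 (0.982) and Ifi204 (0.982). Isg15 had 52.8 and 61.5 CPM in unpulsed and OVA-pulsed CtrV cells and 335 and 324 CPM in EKO-labelled cells (means of 3). Ifi204, a DNA sensor, had 9.39 and 11.1 CPM and 23.9 and 23.1 CPM. Gm5831 is a processed pseudogene on chromosome 9 (42964872 to 42966080) that had 44.8% of its stretches of 50 bases in Sp140 and is thus no separate measurement. AC151275.1, Isg15, Herc6, Oas1a and Ifi204 share no such stretch with a member, while C130026I21Rik has 22.7% of its stretches in members.

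Of 24 listed components of PML nuclear bodies and their modifiers 23 were tested. With OVA edgeR called 6 higher and 3 lower under the EKO label, with a median log2 fold change of -0.01, beside 47.0% of tested genes called in either direction. Without OVA 7 were higher and 1 was lower, with a median of 0.03, beside 46.4% of tested genes. The called share of these partners was no larger than that of all genes. Pml, the scaffold of the bodies, had 57.2 ± 8.94 CPM in CtrV cultures with OVA, against 85.0 ± 16.5 CPM under the EKO label (SD, n = 3 per group). The log2 fold change was 0.53 (adjusted p = 0.086 from edgeR). Without OVA the levels were 51.9 ± 5.17 and 94.8 ± 35.3 CPM, and the log2 fold change was 0.83 (adjusted p = 0.015 from edgeR). The dependence of this difference on pulsing was not called for Pml or any other gene. With OVA Daxx, a histone H3.3 chaperone of the bodies, rose by a log2 fold change of 0.63 (adjusted p = 0.0026 from edgeR) and its partner Atrx by 0.44 (adjusted p = 0.011 from edgeR). Isg20, an interferon-induced exonuclease of the bodies, rose most, by 1.95 (adjusted p = 7.8e-04 from edgeR). Nbn and Senp6 were also higher, at 0.47 and 0.22. The lower genes were Cbx3 at -0.30 and Cbx5 at -0.35, which encode HP1 proteins, a kind of chromatin protein that Sp100 binds, and Hira at -0.18. Cbx1, the other HP1 gene, had -0.07 and was not called. Without OVA Cbx3 was the lower gene called, and Cbx5 and Hira were not called.

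Of 16 listed genes of the type I interferon signal chain, all tested, edgeR called 9 higher and 1 lower under the EKO label with OVA, beside 25.1% and 21.9% of all tested genes. Without OVA it called 10 and 1, beside 24.5% and 21.9%. Ifnb1, the ligand, had 0.121 to 0.189 CPM in OVA-pulsed CtrV, close to the level of 3 counts, and 2.27 to 3.60 CPM in EKO-labelled cells. It passed the filter through the EKO-labelled libraries alone, so its place among the called genes is no support and no fold change is given. Its receptor genes did not follow, with -0.16 for Ifnar1 (adjusted p = 0.064 from edgeR) and -0.31 for Ifnar2 (adjusted p = 0.0014 from edgeR) with OVA. Stat2 and Irf9, transcription factors that act below the receptor, were higher by 0.93 and 0.77 with OVA. Irf7, which amplifies interferon production, was higher by 2.28 with OVA, and the feedback inhibitor Usp18 by 1.83. Irf3 and Irf5 had -0.04 and -0.09 with OVA and were not called. With OVA against without, 0 genes of this chain were called in either line by edgeR.

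Among 11 other listed proteins with a bromodomain or PHD finger 9 were tested, of which edgeR called 5 higher and 2 lower under the EKO label, with OVA and without. Over all tested genes 25.1% were called higher and 21.9% lower with OVA, and 24.5% and 21.9% without. The higher ones were Phf11a, Phf11b, Phf11c and Phf11d, at 1.54, 1.31, 1.54 and 1.18 with OVA, and Baz2a at 0.23. Without OVA they were at 1.65, 1.44, 1.94, 1.60 and 0.24, in the same order. The Phf11 genes are themselves neighbouring copies, which can share reads, so 4 of the 5 higher genes may not be separate measurements. Their sequences were not compared. Trim24 and Trim28, which encode co-repressors with both domains, were lower, at -0.28 and -0.33 with OVA.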

How the data were processed

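RNA of 12 Sp37A3 cultures was sequenced, 3 in each of 4 groups taken from the sample labels. The deposited table holds unnormalized counts per gene. According to the authors' methods, reads were aligned to mm10 with STAR, 1 location was reported for reads with up to 10 equal hits, and 5′ ends were counted on exon unions with featureCounts and an Ensembl model. The labels name a stranded library kit. No value column was left out.

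Counts were normalized by TMM and fitted with edgeR 4.0.16 in R 4.3.3 (quasi-likelihood, group and replicate number as covariates, all 12 libraries), after a filter of log2 CPM above 0 in at least 2 libraries. Benjamini-Hochberg adjustment ran over 14079 genes, with a threshold of 0.05. Symbols, positions and lengths came from GENCODE M21 on GRCm38, so gene models may differ from the authors'. Promoter windows came from RefSeq on GRCm38.p6. Transcripts were compared by stretches of 50 bases and with BLAST+ 2.17.0, and windows were aligned with Biopython 1.88. The fit was tested on simulated data. Intervals and the level of 3 counts cover the spread between these cultures and counting error only. The labels do not say that replicates came from separate thaws or days, so p-values measure the spread between these samples, which may be technical.

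The replicate numbers come from the labels, and the methods use them as covariate.

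The members and the gene lists were chosen with earlier results of these data known. All 9 members are named. Some genes counted in the lists are not reported here by name. The neighbours are the genes within 1 Mb that passed the filter, and the like genes are the 5 with the highest correlation by each measure. Alternatives were DESeq2 1.42.0, RLE normalization, no filter, an adjusted p under 0.01, leaving out the replicate block, a filter of 10 counts per library, summed copies and leaving out libraries. The bias-adjusted quasi-likelihood fit and the sum of Sp100 and Gm7609 were added after the data had been seen.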

Additional observations from a re-analysis of the deposited data

How the results depend on the processing

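The direction of the difference between the lines was the same for each of the 9 members under every alternative run. For each member all 6 EKO-labelled libraries lay above all 6 CtrV libraries, so leaving out libraries could not reverse the direction. The count of genes that differed with OVA was 6619. It was 5413 without the replicate block and 5828 with DESeq2, and it lay between 5171 and 6993 with libraries left out. Without OVA it was 6537, and 5337 without the replicate block. For OVA-pulsed against unpulsed cells and for the dependence on pulsing, 0 genes were called in every alternative. Deviations from the group means of same-numbered libraries correlated across genes at 0.448, 0.292 and 0.289 between the OVA-pulsed groups and at 0.060, -0.012 and 0.263 between the unpulsed groups. Between unpulsed and OVA-pulsed libraries they were 0.077, 0.179 and 0.373 in CtrV and 0.706, 0.351 and 0.411 in EKO-labelled cells. Same-numbered libraries thus deviated together in some pairs of groups, and not in every pair above 0.1. The replicate block changed no call on pulsing for a member. Without it the log2 fold change of Gm7609 with OVA was 2.62 and that of Sp100 1.01. For pulsing, members kept their call because 0 genes were called in every alternative. The next count is therefore no measure of stability for those values. Of 905 values of members under alternatives, 901 kept their call or, for the difference between the lines, moved by less than the SD between replicates. The other 4 left out culture 1 of the OVA-pulsed CtrV cells, which gave 1.10 for Sp110, 3.11 for Gm7609, 2.96 for Gm7582 and 2.48 for Gm2619. Shared reads limit the values of single copies, and Gm2619 at about 1 CPM in CtrV cells is limited by depth as well. With 3 cultures per group, changes with pulsing smaller than the intervals given could not be seen.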
